A study of Homo sapiens with 18 samples.

Results

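The genes described here are 10 cell surface guidance genes: the Eph receptors EPHA1, EPHA2, EPHB2, EPHB3 and EPHB4, the ephrins EFNA1, EFNB1 and EFNB2, and the neuropilins NRP1 and NRP2. They were chosen by gene ID from the count table with the differences between sheared and static cells in view, so those differences are a description. Where a member is given as called or not called between sheared and static cells, this says on which side of the threshold it lay in a fit across all genes, and supports nothing. All 10 were found among the 28395 gene IDs of the table, and all 10 were among the 15189 genes that passed the filter on low counts.

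The study used PC-3, an established human prostate cancer cell line. Sheared cells had been pushed in suspension through a syringe and fine needle, which exposes them briefly to fluid shear stress, while static cells of the same pool stayed in suspension without that passage. Both then stayed in serum-free medium in wells whose coating prevents attachment, and RNA of the cytosolic fraction was sequenced. The 18 libraries form 6 groups of 3: sheared and static cells at 3 h, at 12 h and at 24 h after exposure, with all groups unattached, so that no group represents attached cells. A pool of cells was split between a sheared and a static library, 3 pools per time and 9 pools in all, and the pools of different times were independent.

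Eph receptors are receptor tyrosine kinases whose ligands, the ephrins, are themselves bound to the surface of neighbouring cells. Contact therefore sends a signal into both cells: forward through the receptor and, for the transmembrane B-type ephrins, in reverse through the ligand, and the outcome is often repulsion, detachment or a change in cell spreading. A-type ephrins are held by a lipid anchor and mainly bind A-type receptors. Neuropilins have a short cytoplasmic tail and act as co-receptors, with plexins for class 3 semaphorins and with VEGF receptors for VEGF. In epithelial tumours, EPHA2 is known as an abundant receptor that can promote migration when it is not bound by ligand, and both neuropilins have been linked to invasive growth.

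Libraries held between 16400487 and 25862360 counts. The third sheared library at 24 h stood apart, with a TMM factor of 0.721, 17007 genes detected against 17585 to 18260 in the other libraries, and 28.2% of its counts in its 100 most abundant genes. The batch date in the labels was one for all 3 h libraries and a different one for all later libraries. Of the 9 epithelial markers, 8 passed the filter, and their summed level in a library was between 4050.0 and 11535 CPM (read counts scaled to the size of the library). KLK3, which encodes prostate-specific antigen, reached at most 0.0679 CPM. Of the 9 markers of endothelial cells, which also use ephrins and neuropilins, CDH5 reached at most 0.256 CPM and VWF at most 0.205 CPM. PECAM1, with 9.69 to 109 CPM, and ESAM passed the filter, and the whole list summed to between 21.1 and 129.7 CPM. PTPRC, the pan-leukocyte marker, reached at most 0.539 CPM, but the 8 haematopoietic markers, of which CD68 had the highest level, summed to more. Their sum was at most 18.5 CPM at 3 h. At 24 h it was 76.1 to 135 CPM in sheared cells and 65.8 to 119 CPM in static cells. The fibroblast list summed to between 19.6 and 41.5 CPM. Some of these markers moved with treatment. Of the epithelial markers, CDH1 was called lower in sheared cells at 12 h, at -0.51 ± 0.11 on the log2 scale, and at 24 h, at -0.49 ± 0.11, while at 12 h KRT8 was called higher, at 0.59 ± 0.13, and CLDN4 lower, at -0.43 ± 0.12. The prostate markers SLC45A3 and FOLH1 were called lower in sheared 24 h cells, at -0.39 ± 0.12 and -0.39 ± 0.13. PECAM1 was called lower in sheared 12 h cells, at -0.67 ± 0.14 on the log2 scale, and COL1A1 higher in sheared 3 h cells, at 1.19 ± 0.16, but lower in sheared 24 h cells, at -0.48 ± 0.16. Other fibroblast markers did not follow COL1A1 at 3 h: the median of the 5 tested was -0.42, with 2 lower at an unadjusted p below 0.05 in edgeR. PDGFRA of that list was called lower in sheared 12 h cells, and at -1.72 was still called without the third 24 h pool. The 24 h calls of SLC45A3, FOLH1 and COL1A1 were lost without the third 24 h pool, at -0.39, -0.39 and -0.38, and that of CDH1 was kept. MALAT1, which is retained in the nucleus and so marks the purity of the cytosol, had 14.4 to 15.1 CPM in sheared 3 h cells, against 23.9 to 29.5 CPM in static 3 h cells, and at -0.82 ± 0.54 was not called. Without the third 24 h pool its 3 h value was -0.82 ± 0.17, which was called lower. PVT1, another of the nuclear RNAs listed, lay the other way and was called higher in sheared 12 h cells. Without that pool PVT1 was at 0.37 at 3 h, not called, and at 0.94 at 12 h, called. The median of the 4 nuclear RNAs tested was -0.56 at 3 h and 0.01 at 12 h. The 5 nuclear RNAs summed to between 66.1 and 489 CPM in sheared 24 h cells, against 103 to 174 CPM in static 24 h cells. Their part in the results was not tested. In such bulk RNA, fewer cells of a type and less RNA per cell cannot be told apart.

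Per kilobase of merged exons, EPHA2, NRP1, EFNB1 and EPHB4 were the leading members in 5 of the 6 groups, and EPHB2 and NRP2 were the lowest in all 6. In static 3 h cells EPHB3, at 29.7 ± 5.14 CPM per kilobase, stood between EFNB1 at 32.9 ± 1.73 and EPHB4 at 26.5 ± 3.89 (SD, n = 3 each), and the libraries of these neighbours overlapped. The order at the top differed between treatments. In sheared 12 h cells EPHA2 came first with 63.6 ± 10.2 CPM per kilobase, then EFNB1 with 48.6 ± 6.94 and NRP1 with 39.7 ± 1.62, whereas in static 12 h cells NRP1 came first with 67.5 ± 3.01, then EPHA2 with 48.7 ± 5.48 and EFNB1 with 46.8 ± 5.16. EPHA2 and EFNB1 overlapped in both groups, and NRP1 was apart from its neighbours in both. At the bottom, NRP2 had 0.525 ± 0.0403 CPM per kilobase in sheared 12 h cells and 0.226 ± 0.0378 in static 12 h cells, and the libraries of EPHB2 lay above those of NRP2 in every group other than sheared 24 h cells, where they overlapped.

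**Figure D1:**
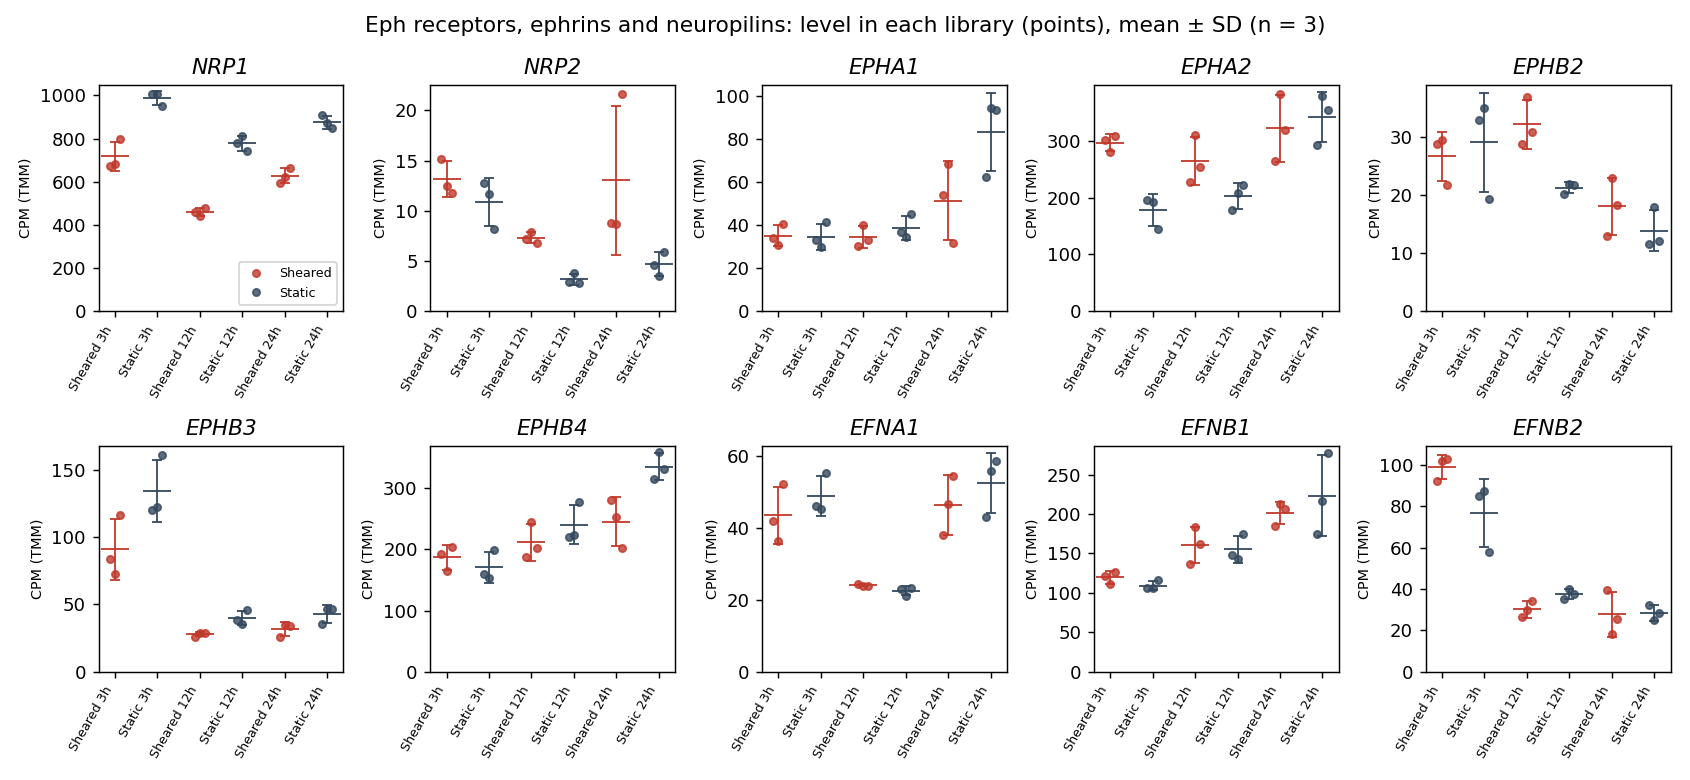
Level of each of the 10 genes in CPM scaled by TMM factors (vertical axis from 0), with 1 panel per gene and 6 groups along the horizontal axis; points are libraries and bars the mean ± SD of 3. The sheared points of NRP1 lie below the static ones at every time, and those of NRP2 lie above them at 12 h and 24 h.

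Promoter windows of RefSeq, 250 bases before to 50 after the start site on GRCh38.p14, were held for 9 of the 10 members, and NRP1 had none in the table. Those of EPHA2, EPHB3 and NRP2 are shown because these genes differed between sheared and static cells in separate ways: EPHA2 was higher early, EPHB3 was lower at all 3 times and NRP2 was higher late. Capitals mark matches, on either strand, of 8 motifs searched as letters: AP-1 (TGANTCA), CRE (TGACGTCA), TEAD (GGAATG), HIF (ACGTG), GC box (GGGCGG), the TATA element (TATAAA), E-box (CACGTG, which contains the HIF letters) and RBPJ (TGGGAA).
EPHA2, chr1:16156020-16156319, minus strand: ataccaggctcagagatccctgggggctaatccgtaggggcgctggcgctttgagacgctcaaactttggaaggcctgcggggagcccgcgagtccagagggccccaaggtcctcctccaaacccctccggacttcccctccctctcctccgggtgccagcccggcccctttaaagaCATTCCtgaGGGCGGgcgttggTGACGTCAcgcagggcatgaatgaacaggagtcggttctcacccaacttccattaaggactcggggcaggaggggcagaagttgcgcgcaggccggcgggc
EPHB3, chr3:184561535-184561834, plus strand: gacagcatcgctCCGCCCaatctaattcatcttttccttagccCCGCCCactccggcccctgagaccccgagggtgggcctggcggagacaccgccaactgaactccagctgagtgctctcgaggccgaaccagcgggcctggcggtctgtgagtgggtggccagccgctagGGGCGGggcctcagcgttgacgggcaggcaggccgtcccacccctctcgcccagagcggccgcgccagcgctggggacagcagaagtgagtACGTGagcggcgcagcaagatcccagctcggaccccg
NRP2, chr2:205682251-205682550, plus strand: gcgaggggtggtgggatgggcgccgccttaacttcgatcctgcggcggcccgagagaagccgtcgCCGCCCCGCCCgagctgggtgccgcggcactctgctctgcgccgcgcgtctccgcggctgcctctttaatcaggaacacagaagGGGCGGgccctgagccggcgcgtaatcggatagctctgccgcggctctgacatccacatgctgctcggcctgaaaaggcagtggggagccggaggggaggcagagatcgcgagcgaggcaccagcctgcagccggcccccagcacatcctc

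The EPHA2 window was the only one of the 9 that held the CRE letters, the element recognised by CREB and ATF factors, which began 51 bases before the start site. It was also the only one with the TEAD letters, in the reverse orientation 73 bases before the start site. Over all 35116 windows, 1.85% held the CRE letters and 14.0% the TEAD letters. EPHB3 was the only member with the HIF letters, which 21.4% of all windows held, and EFNB2 the only one with the TATA letters, which 11.5% held. All 9 windows held a GC box, against 45.0% of all windows, and RBPJ letters were in 3 of the 9, against 24.0%. The AP-1 and E-box letters were in 0 of the 9, against 7.71% and 7.26% of all windows. The GC content was 64.3% in the EPHA2 window, 69.0% in that of EPHB3 and 70.0% in that of NRP2, where the median over all windows was 58.7%.

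The neuropilins differed between sheared and static cells in opposite directions. NRP1 (chr10:33177492-33336262, minus strand, GRCh38) is the co-receptor through which SEMA3A and VEGF-A act. It had 674, 684 and 796 CPM in sheared 3 h cells, against 1007, 1006 and 952 CPM in static 3 h cells. At 12 h it had 457, 439 and 477 CPM in sheared cells, against 779.9, 811 and 742 CPM in static cells. The 24 h libraries held 596, 623 and 665 CPM in sheared cells, against 909, 871 and 848 CPM in static cells. Every sheared library was thus below every static library of its time, and NRP1 was lower in sheared cells in all 9 pools. Its log2 fold change was -0.46 ± 0.11 (SE) at 3 h, -0.76 ± 0.11 at 12 h and -0.48 ± 0.11 at 24 h. All of these were called, which here means an adjusted p below 0.05 over all genes tested in edgeR's quasi-likelihood test. The call at 3 h was lost when any 3 h pool was left out, with values between -0.57 and -0.41, and when the first 12 h pool was left out, at -0.46. That at 24 h was lost in a fit of the 6 libraries of 24 h alone.

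NRP2 (chr2:205681990-205798133, plus strand) encodes the co-receptor preferred by SEMA3F and VEGF-C, and its promoter window is the third of those printed. It was the least abundant member, with raw counts of 52 to 409 per library. It had 15.2, 12.5 and 11.8 CPM in sheared 3 h cells, against 12.8, 11.7 and 8.20 CPM in static 3 h cells, groups that overlapped. In sheared 12 h cells the level was 7.14, 7.91 and 6.82 CPM, against 2.89, 3.75 and 2.79 CPM in static 12 h cells. It was 8.76, 8.70 and 21.6 CPM in sheared 24 h cells, against 4.55, 3.50 and 5.88 CPM in static 24 h cells. The later groups did not overlap, and the high value at 24 h came from the library that stood apart. The log2 fold change was 0.29 ± 0.18 at 3 h, not called, 1.22 ± 0.20 at 12 h and 1.40 ± 0.20 at 24 h, both called. Without the third 24 h pool the 24 h value was 1.14, still called.

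The balance of the 2 neuropilins can be read from the ratio of their CPM. The ratio of NRP1 to NRP2 CPM was 44.3, 54.9 and 67.2 in sheared 3 h cells, against 78.6, 86.0 and 116 in static 3 h cells. At 12 h it was 64.0, 55.5 and 69.9 in sheared cells, against 270.1, 216 and 266 in static cells. At 24 h the ratio was 68.0, 71.6 and 30.9 in sheared cells, against 199.8, 249 and 144 in static cells. All sheared libraries thus had ratios between 30.9 and 71.6, with the lowest in the library that stood apart, and all static libraries had ratios between 78.6 and 270.1. The ratio is one of counts and not of molecules, since the 2 genes differ in length.

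**Figure D2:**
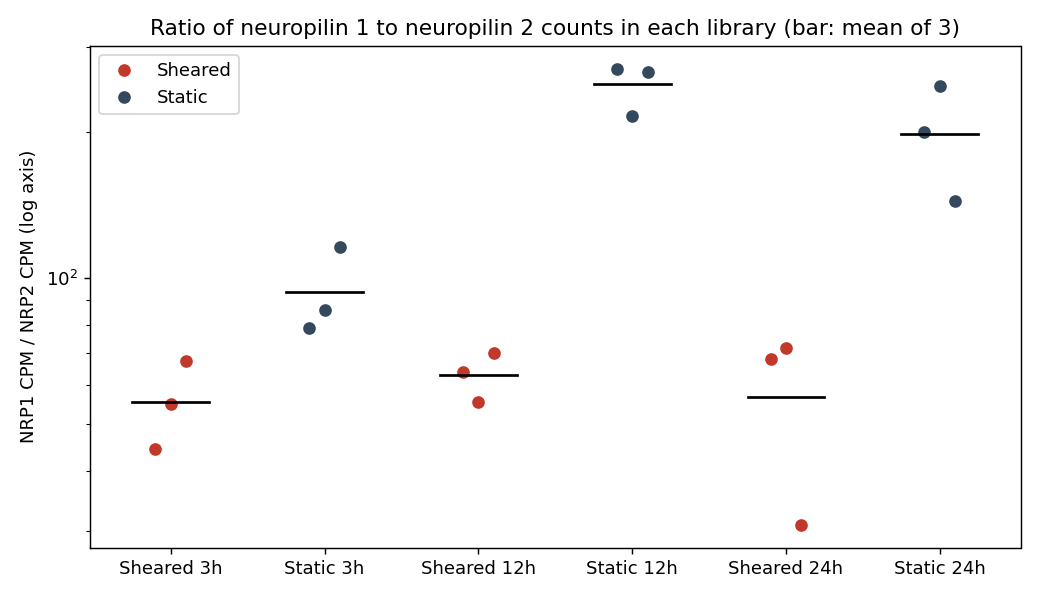
Ratio of NRP1 to NRP2 CPM in each library (log axis) for the 6 groups; points are libraries and bars the mean of 3. At 12 h the sheared libraries lie between 55.5 and 69.9 and the static libraries between 216 and 270.1.

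The A-type receptors followed separate courses. EPHA2 (chr1:16124337-16156087, minus strand) had 302, 280.5 and 309 CPM in sheared 3 h cells, against 196, 192 and 145 CPM in static 3 h cells. The 12 h libraries held 228, 311 and 254 CPM in sheared cells, against 178, 208 and 222 CPM in static cells. At 24 h the level was 265, 383 and 319 CPM in sheared cells, against 293, 379 and 355 CPM in static cells. Sheared and static libraries were apart at 3 h and, narrowly, at 12 h, and overlapped at 24 h. Its log2 fold change was 0.75 ± 0.12 at 3 h, which was called, 0.38 ± 0.12 at 12 h and -0.09 ± 0.12 at 24 h, neither of them called. Without the third 3 h pool, whose own log2 ratio was 1.10 against 0.62 and 0.55 in the other pools, the 3 h value was 0.59 and no longer called. The 12 h value of 0.38 was on the edge of the threshold: it was called with DESeq2, without the filter, with the 6 libraries of 12 h alone and without the third 12 h, the second 24 h or the third 24 h pool, and was not called under the other alternatives.

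EPHA1 (chr7:143390289-143408892, minus strand), the receptor that gave the family its name and an EFNA1 receptor, was near the same level in sheared and static cells until 24 h. It had 33.7, 30.7 and 40.4 CPM in sheared 3 h cells, against 32.8, 29.6 and 41.2 CPM in static 3 h cells, with each pool's pair close together. At 12 h the level was 30.3, 40.0 and 33.0 CPM in sheared cells, against 36.6, 34.3 and 45.1 CPM in static cells. At 24 h it had 53.7, 68.2 and 31.8 CPM in sheared cells, against 62.5, 94.3 and 93.3 CPM in static cells. The 24 h groups overlapped, and the lowest sheared value came from the library that stood apart. The log2 fold change was 0.02 ± 0.19 at 3 h, -0.17 ± 0.20 at 12 h and -0.73 ± 0.20 at 24 h, of which that at 24 h was called. It was -0.33 and not called without the third 24 h pool, whose log2 ratio of -1.55 compared with -0.22 and -0.47 in the other pools. Exons of EPHA1 overlap those of ZYX, the focal adhesion protein zyxin, on the opposite strand. ZYX was the more abundant of the pair and also lower in sheared 24 h cells, with a log2 fold change of -0.55 ± 0.12. The strand setting of the counting is not given in the sources used here, so reads of EPHA1 and ZYX in the shared part cannot be told apart.

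Among the B-type receptors, EPHB3 was the one called at every time. EPHB3 (chr3:184561784-184582409, plus strand), which sorts cells along the intestinal crypt in mice, had 84.0, 72.2 and 116 CPM in sheared 3 h cells, against 120.1, 122 and 161 CPM in static 3 h cells. In the 12 h libraries there were 25.9, 28.8 and 28.7 CPM in sheared cells, against 38.4, 35.1 and 45.6 CPM in static cells. The 24 h libraries held 25.4, 35.0 and 33.9 CPM in sheared cells, against 35.2, 46.6 and 46.9 CPM in static cells. The groups did not overlap at any time, although at 24 h the highest sheared library, with 35.0 CPM, and the lowest static library, with 35.2 CPM, were close. All 9 pools had the lower value in the sheared library, and the log2 fold change was -0.58 ± 0.11 at 3 h, -0.51 ± 0.12 at 12 h and -0.45 ± 0.12 at 24 h. These differences were smaller than the change of EPHB3 between 3 h and 12 h, and each call was lost when single pools were left out: any pool at 3 h, with values between -0.63 and -0.50, the first or the third at 12 h, with -0.48 and -0.42, and the third at 24 h, with -0.42.

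EPHB2 (chr1:22710839-22921500, plus strand), which shares B-type ephrins with EPHB3 and was the least abundant of the receptors per kilobase, lay the other way at the later times. It had 28.8, 29.5 and 21.8 CPM in sheared 3 h cells, against 32.9, 35.1 and 19.3 CPM in static 3 h cells. At 12 h it had 28.8, 36.9 and 30.9 CPM in sheared cells, against 20.2, 21.9 and 21.8 CPM in static cells. At 24 h the level was 13, 22.9 and 18.3 CPM in sheared cells, against 11.5, 18 and 12.1 CPM in static cells. The groups were apart at 12 h and overlapped at 3 h and 24 h. Its log2 fold change was -0.09 ± 0.14 at 3 h, 0.59 ± 0.14 at 12 h, which was called, and 0.38 ± 0.14 at 24 h. Without the first 12 h pool the 12 h value was 0.63, and without the second it was 0.51, and neither was called.

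EPHB4 (chr7:100802565-100827521, minus strand), the receptor of EFNB2 in the division of veins from arteries, differed at 24 h. It had 192, 165 and 204 CPM in sheared 3 h cells, against 159, 154 and 199.6 CPM in static 3 h cells. The 12 h libraries held 187, 245 and 203 CPM in sheared cells, against 219.6, 224 and 277 CPM in static cells. In the 24 h libraries there were 280.5, 253 and 202 CPM in sheared cells, against 315, 359 and 332 CPM in static cells. Only the 24 h groups were apart, and the library that stood apart again held the lowest sheared value. The log2 fold change was 0.14 ± 0.13 at 3 h, -0.18 ± 0.13 at 12 h and -0.46 ± 0.13 at 24 h, the last of which was called. It was -0.32 without the third 24 h pool and -0.44 without the second, and not called in either case. EPHB4 overlaps SLC12A9 on the opposite strand, a gene with 147 to 964 counts per library. SLC12A9 was also lower in sheared 24 h cells, with a log2 fold change of -0.56 ± 0.17 that was called. Reads of the shared part cannot be told apart here either.

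None of the 3 ephrins was called at any time, in edgeR or in DESeq2, and an unadjusted p below 0.05 was reached once at 3 h and once at 12 h, both times by EFNB2. The shares of all genes called higher and lower were 1.12% and 0.342% at 3 h and 6.29% and 4.55% at 12 h. At 24 h they were 9.13% and 8.07%, and nothing is read from this count. EFNA1 (chr1:155127460-155134857, plus strand), the ligand of EPHA2 and EPHA1, had 41.9, 36.5 and 52.2 CPM in sheared 3 h cells, against 46.2, 45.4 and 55.3 CPM in static 3 h cells. At 12 h the level was 24.4, 23.9 and 23.9 CPM in sheared cells, against 23.1, 21.2 and 23.4 CPM in static cells. At 24 h it had 38.0, 46.6 and 54.6 CPM in sheared cells, against 43.2, 56.0 and 58.8 CPM in static cells. Its sheared and static levels were thus close at each time while both moved with time. The log2 fold change between sheared and static cells was -0.18 ± 0.11 at 3 h, 0.09 ± 0.12 at 12 h and -0.19 ± 0.11 at 24 h.

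EFNB1 (chrX:68828997-68842147, plus strand), a transmembrane ligand of EPHB2 and EPHB3, had 121, 111 and 127 CPM in sheared 3 h cells, against 106, 106 and 116 CPM in static 3 h cells. In the 12 h libraries there were 137, 183 and 162 CPM in sheared cells, against 148, 143 and 175 CPM in static cells. The 24 h libraries held 185, 213 and 206 CPM in sheared cells, against 175, 217 and 278 CPM in static cells. The groups overlapped at every time, with log2 fold changes of 0.14 ± 0.12, 0.05 ± 0.12 and -0.13 ± 0.12 at 3, 12 and 24 h.

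EFNB2 (chr13:106489731-106535662, minus strand), the preferred ligand of EPHB4, had 92.3, 102 and 103 CPM in sheared 3 h cells, against 85.0, 87.6 and 57.8 CPM in static 3 h cells. At 12 h it had 26.3, 30.0 and 34.3 CPM in sheared cells, against 35.2, 40.0 and 37.6 CPM in static cells. At 24 h the level was 39.7, 18.3 and 25.3 CPM in sheared cells, against 32.3, 24.8 and 28.4 CPM in static cells. The groups were apart in opposite directions at 3 h and 12 h and overlapped at 24 h. Its log2 fold change was 0.39 ± 0.15 at 3 h, -0.32 ± 0.15 at 12 h and -0.10 ± 0.16 at 24 h, and none of these passed the threshold.

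In all, sheared 3 h cells had 1 member called higher, where 1.12% of all genes tested were called higher, and 2 called lower, where 0.342% were. At 12 h, 2 members were called higher against 6.29% of all genes, and 2 lower against 4.55%. At 24 h, 1 member was called higher against 9.13% of all genes, and 4 lower against 8.07%. The members were chosen with these differences in view, so nothing is read from their counts. The median log2 fold change of the 10 was 0.08 at 3 h, -0.06 at 12 h and -0.16 at 24 h, beside 0.01, -0.01 and -0.02 over all genes. The library that stood apart touched the 24 h count: without its pool, 2 members were called, NRP2 higher and NRP1 lower. In the authors' deposited tables, which compare sheared with static cells by log2 fold change, the members with an adjusted p below 0.05 were EPHA2, EPHB3 and NRP1 at 3 h, NRP2, EPHB3 and NRP1 at 12 h, and NRP2 and NRP1 at 24 h.

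**Figure D3:**
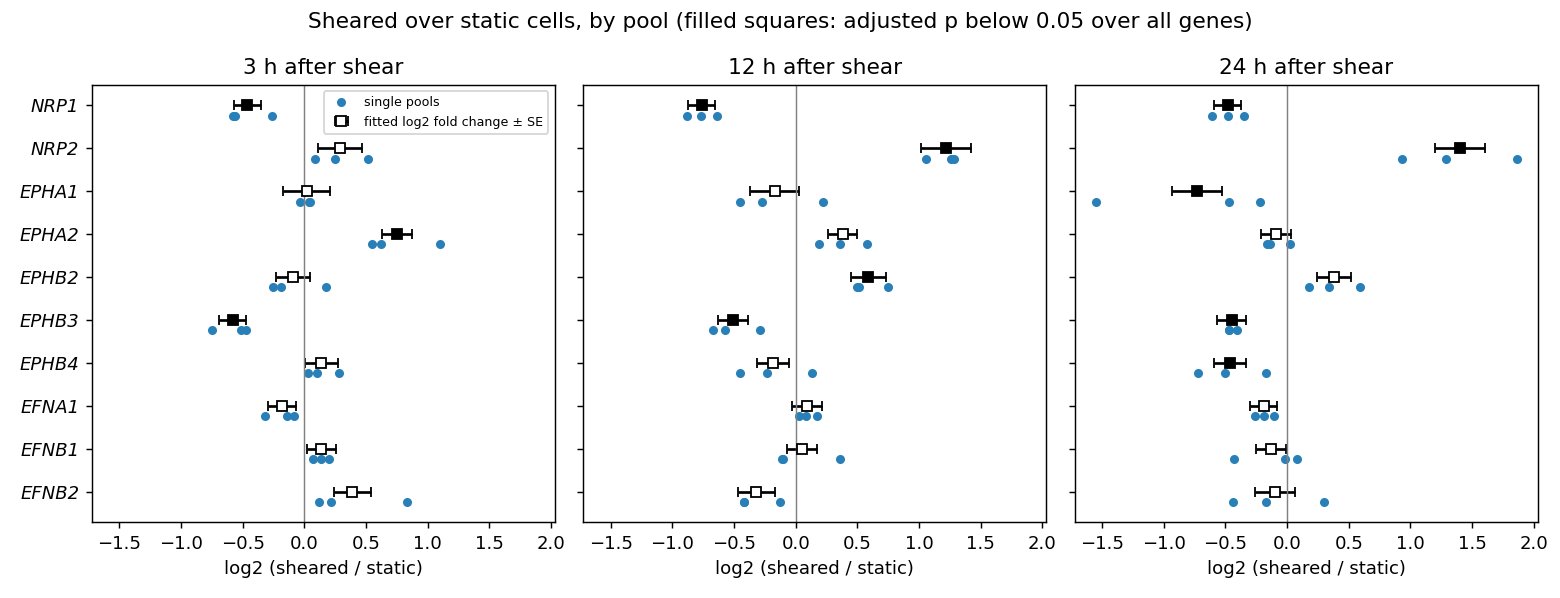
Log2 ratio of sheared over static cells (horizontal axis) for each of the 10 genes at 3 h, 12 h and 24 h; circles are single pools, squares the fitted log2 fold change ± SE, filled where the adjusted p is below 0.05. NRP1 and EPHB3 lie left of 0 in all 9 pools, and NRP2 lies right of 0 in all 9.

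Change over time in suspension was not used to choose the members, and was tested. The libraries are those of the shear comparison, however, so these tests are not independent of the choice. A high level in static 24 h cells lowers sheared over static at 24 h and raises static 24 h over 12 h. EPHA1 and EPHB4 were called in both of these comparisons. How far the choice bears on the changes with time was not tested. Between 12 h and 24 h, which share a batch date, levels of several receptors and ligands were higher at 24 h in static cells. In static cells, 5 members rose, where 16.9% of the 14804 genes tested rose, and 1 fell, where 15.6% fell. The median log2 fold change of the members was 0.49, beside 0.01 for all genes. Of the 6 other Eph receptors tested, 0 rose and EPHB6 fell, with a median of -0.00. Of the 4 other ephrins tested, 0 rose (1 at an unadjusted p below 0.05 in edgeR) and EFNB3 fell, with a median of 0.12. Other lists moved in the same comparison: 6 of the 8 epithelial markers tested rose, with a median of 0.77, as did 4 of the 7 class 3 semaphorins, with a median of 0.43, and CD68, while MALAT1 fell by 1.21 ± 0.22. Their part in the members' changes was not tested. EFNA1 rose most, to 52.7 ± 8.30 CPM in static 24 h cells, against 22.6 ± 1.17 CPM in static 12 h cells (SD, n = 3 each), with a log2 fold change of 1.21 ± 0.14 (SE) and an adjusted p of 1.55e-05 in edgeR. The 2 A-type receptors among the members rose as well. EPHA1 reached 83.4 ± 18.1 CPM in static 24 h cells, against 38.7 ± 5.71 CPM in static 12 h cells, a log2 fold change of 1.10 ± 0.17 with an adjusted p of 2.00e-04. EPHA2 reached 342 ± 44.6 CPM in static 24 h cells, against 202 ± 22.8 CPM in static 12 h cells, a log2 fold change of 0.75 ± 0.14 with an adjusted p of 0.00107. For all 3, the 24 h and 12 h libraries did not overlap, and the call held under all 9 alternatives tried. ZYX, which overlaps EPHA1, rose by 1.46 ± 0.18 on the log2 scale in the same comparison.

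Smaller changes in static cells between 12 h and 24 h were seen for EPHB4, EFNB1 and EPHB2. EPHB4 rose by 0.47 ± 0.13 on the log2 scale (adjusted p = 0.0136) and EFNB1 by 0.52 ± 0.15 (adjusted p = 0.0147), whereas EPHB2 fell by 0.63 ± 0.21 (adjusted p = 0.0309, all in edgeR). These 3 depended on single libraries. The EPHB4 value was 0.41 without the first static 12 h library and 0.42 without the second, and the EFNB1 value was 0.48 without the first, 0.46 without the second and 0.32 without the third static 24 h library. None of those was called, and the EPHB2 call was lost in 5 of 6 such fits, with values between -0.87 and -0.51 over all alternatives. EPHB3 at 0.10 ± 0.16, NRP1 at 0.16 ± 0.11, NRP2 at 0.56 ± 0.25 and EFNB2 at -0.41 ± 0.16 did not pass the threshold.

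In sheared cells the same interval gave 1 member that rose, where 1.75% of 14672 genes tested rose, and 0 that fell, where 0.797% fell. At an unadjusted p below 0.05, 4 members were higher and 1 lower, and DESeq2 called 2 higher and 1 lower. EFNA1 was the member that passed, at 46.4 ± 8.32 CPM in sheared 24 h cells, against 24.0 ± 0.273 CPM in sheared 12 h cells, a log2 fold change of 0.94 ± 0.20 with an adjusted p of 0.0318. It was not called when any 1 of the sheared 12 h libraries was left out, although the value stayed between 0.93 and 0.94. EPHA1 had a log2 fold change of 0.56 ± 0.25 and an adjusted p of 0.224 in edgeR, and without the third sheared 24 h library 0.83 and 0.0316. The members' median log2 fold change in sheared cells was 0.29, beside -0.00 for all genes. Sheared and static cells were tested in separate models here, so a call in static cells that is missing in sheared cells does not show that they differ.

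Between 3 h and 12 h in static cells, 2 members rose, where 21.7% of genes rose, and 5 fell, where 22.9% fell. EPHB3 fell to 39.7 ± 5.36 CPM in static 12 h cells, against 134 ± 23.3 CPM in static 3 h cells, by 1.76 ± 0.16 on the log2 scale with an adjusted p of 2.02e-07. NRP2 fell to 3.14 ± 0.525 CPM in static 12 h cells, against 10.9 ± 2.40 CPM in static 3 h cells, by 1.80 ± 0.24 with an adjusted p of 1.43e-05. EFNA1 fell by 1.12 ± 0.14 (adjusted p = 9.60e-06) and EFNB2 by 1.03 ± 0.16 (adjusted p = 5.98e-05) in edgeR. These 4 calls held under all 9 alternatives tried. NRP1 fell by 0.35 ± 0.11 (adjusted p = 0.0159), while EPHB4 rose by 0.49 ± 0.13 (adjusted p = 0.00731) and EFNB1 by 0.50 ± 0.15 (adjusted p = 0.0117) in edgeR. The calls of NRP1, EPHB4 and EFNB1 were lost without single libraries. NRP1 had -0.34 without the first or the second static 3 h library and -0.35 without the first static 12 h library, EPHB4 had 0.42 without the second static 3 h library, and EFNB1 had 0.48 without the first static 3 h and 0.42 without the third static 12 h library. Time and batch date cannot be told apart in this interval. Over the 3 times, EFNA1 averaged 43.5 ± 7.97 CPM at 3 h, 24.0 ± 0.273 CPM at 12 h and 46.4 ± 8.32 CPM at 24 h in sheared cells, and 49.0 ± 5.49, 22.6 ± 1.17 and 52.7 ± 8.30 CPM at the same times in static cells, so that both were lowest at 12 h.

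**Figure D4:**
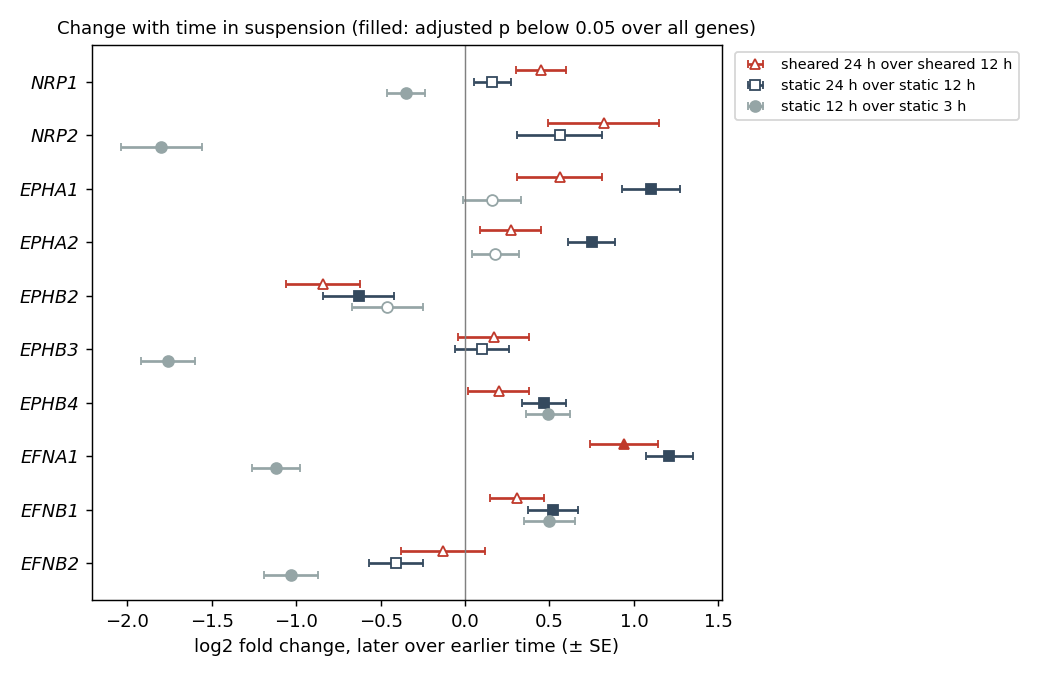
Log2 fold change of the later over the earlier time (± SE, horizontal axis) for each gene in sheared cells at 24 h over 12 h (triangles), static cells at 24 h over 12 h (squares) and static cells at 12 h over 3 h (circles); filled symbols have an adjusted p below 0.05. EFNA1 is filled in all 3 comparisons, at 0.94, 1.21 and -1.12.

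Other genes of these pathways were followed as lists. Of the 9 other Eph receptors, 6 were tested. EPHA4, a receptor that binds both classes of ephrin, was lower in sheared cells at 12 h, with 0.241 to 0.432 CPM in sheared cells against 1.28 to 1.48 CPM in static cells, a log2 fold change of -2.12 ± 0.41 with an adjusted p of 0.00365 in edgeR. At 24 h it was called lower too, at -1.09 ± 0.36, with groups that overlapped, and at -1.19 was not called without the third 24 h pool. EPHA6 was called higher at 12 h, at 1.28 ± 0.34. Its level was low as well, with 1.74 to 2.40 CPM in sheared 12 h cells against 0.542 to 1.11 CPM in static 12 h cells. EPHB6, which lacks kinase activity, was called higher at 24 h, at 0.40 ± 0.14, or 0.30 and not called without the third 24 h pool. Of the 5 other ephrins 4 were tested, and 0 were called at any of the 3 times in edgeR or in DESeq2, while an unadjusted p below 0.05 was reached by 1 of them at 3 h, 0 at 12 h and 1 at 24 h. The shares of all genes called at each time are given with the members' counts.

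Genes that act with the neuropilins were counted in the same way, and each count can be set beside the shares of all genes called at that time, given with the members' counts. Of 7 class 3 semaphorins, all tested, 0 were called at 3 h in edgeR or DESeq2 (1 at an unadjusted p below 0.05), 1 higher and 2 lower at 12 h, and 1 higher and 3 lower at 24 h. SEMA3A, which binds NRP1, was the one called higher: it had 50.2 to 63.6 CPM in sheared 12 h cells, against 37.8 to 45.9 CPM in static 12 h cells, a log2 fold change of 0.40 ± 0.12 with an adjusted p of 0.0417, and 0.52 ± 0.12 with 0.00733 at 24 h in edgeR. SEMA3F, which prefers NRP2, was called lower at both times: it had 70.7 to 87.8 CPM in sheared 12 h cells, against 93.8 to 125 CPM in static 12 h cells, a log2 fold change of -0.43 ± 0.12 with an adjusted p of 0.0286, and -0.48 ± 0.12 with 0.0106 at 24 h. SEMA3D was lower at 12 h, at -0.88 ± 0.19, and at 24 h, at -0.63 ± 0.20, and SEMA3C at 24 h, at -0.45 ± 0.12. Without the third 24 h pool, the 24 h calls of SEMA3A, SEMA3F and SEMA3C were kept and that of SEMA3D, at -0.59, was lost. Of 9 plexins, the signalling partners of neuropilins, all tested, 0 were called at 3 h in edgeR or DESeq2, with 0 at an unadjusted p below 0.05. PLXNA4 was called lower at 12 h, at -1.47 ± 0.45. Its level was low, with 0.241 to 1.63 CPM in sheared 12 h cells against 1.48 to 2.50 CPM in static 12 h cells, groups that overlapped. PLXNB1 and PLXNA1 were lower at 24 h, at -0.58 ± 0.13 and -0.45 ± 0.12. The PLXNA1 call was lost, at -0.35, without the third 24 h pool. In the VEGF family, 6 of 8 were tested, and VEGFB was called higher at 12 h, at 0.40 ± 0.12, and at 24 h, at 0.34 ± 0.11, which at 0.35 was not called without the third 24 h pool. At 3 h 0 of the family were called in edgeR or DESeq2, and 2 had an unadjusted p below 0.05. FLT1, a VEGF receptor, was also called higher at 24 h, with 0.153 to 0.358 CPM in sheared cells against 0 CPM in all static libraries, a level too low for a fold change to be given, and it remained called without that pool. Where edgeR called 2 of the family higher at 24 h, DESeq2 called 1. VEGFC, which prefers NRP2, was not called at any time, at 0.00 ± 0.14, 0.26 ± 0.14 and -0.10 ± 0.14 at 3, 12 and 24 h. VEGFA at 0.26 ± 0.22, -0.04 ± 0.22 and 0.32 ± 0.23 was not called at any time. Its sheared 24 h libraries lay between 89.2 and 358 CPM, and without the third 24 h pool the 24 h value was -0.09.

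Downstream, 28 of 30 signalling partners of Eph receptors and ephrins were tested, with 1 called higher and 1 lower at 3 h, 2 and 2 at 12 h, and 2 and 1 at 24 h. The shares of all genes called higher and lower were 1.12% and 0.342% at 3 h, 6.29% and 4.55% at 12 h, and 9.13% and 8.07% at 24 h. At 3 h DESeq2 called 3 lower, and so did edgeR without the third 24 h pool: VAV3, GRB7 at -0.59 and RGS3 at -0.59. VAV3, a guanine nucleotide exchange factor of the Vav family that acts downstream of Eph receptors, was lower in sheared cells at each time. It had 3.58 to 4.15 CPM in sheared 3 h cells against 5.73 to 8.93 CPM in static 3 h cells, 3.62 to 3.84 against 6.50 to 8.67 CPM at 12 h, and 4.01 to 6.61 against 8.38 to 12.2 CPM at 24 h. Its log2 fold changes were -0.97 ± 0.19, -0.97 ± 0.20 and -1.03 ± 0.20, with adjusted p-values of 0.0109, 0.00533 and 0.00157 in edgeR, and its groups were apart at all times. ABL2, an Abl-family kinase, was called higher at 3 h, with 56.5 to 81.9 CPM in sheared cells against 32.4 to 39.2 CPM in static cells and a log2 fold change of 0.89 ± 0.15. GIPC1, whose PDZ domain binds the tail of NRP1, was called higher at 12 h, at 0.40 ± 0.12, and FYN, a Src-family kinase, at 24 h, at 0.70 ± 0.12. The 24 h calls of VAV3 and FYN were kept without the third 24 h pool. Of 9 proteases that cut Eph receptors or ephrins, 8 were tested, with 0 called at 3 h in edgeR or DESeq2 and 0 at an unadjusted p below 0.05. ADAM17 was lower at 12 h and 24 h, at -0.38 ± 0.12 and -0.39 ± 0.12, NCSTN of the gamma-secretase complex at 12 h, at -0.54 ± 0.12, and PSEN2 at 24 h, at -0.41 ± 0.14. Both 24 h calls were lost without the third 24 h pool, with ADAM17 at -0.35 and PSEN2 at -0.22.

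For the 4 members with the largest called difference, the genes whose 9 paired log2 ratios of sheared over static cells were nearest were sought among 11427 genes with a mean log2 CPM of at least 2. Likeness was the root mean square difference over the 9 pools. Nearest to NRP2 were CAV2, a caveolin, at 0.31, TUBA1B, an alpha tubulin, at 0.32, and SNAI2, a transcription factor of epithelial to mesenchymal transition, at 0.32. Nearest to NRP1 were CTSO at 0.13, TMEM131 at 0.17 and PLEKHM3 at 0.17. The genes nearest to EPHA2 were ZSWIM6 at 0.16, ELL at 0.22 and PXDC1 at 0.22, and those nearest to EPHA1 were PCDH1, a protocadherin, at 0.16, SH3BP5L at 0.17 and TAOK2 at 0.17. The 9 pools include that of the library that stood apart. In that library PCDH1 had 57.7 CPM, SH3BP5L 45.6 CPM and TAOK2 20.1 CPM, each below the other sheared 24 h libraries, as EPHA1 was. TUBA1B had 3579 CPM in it, against 614 and 1330 CPM in the other sheared 24 h libraries. Likeness without that pool was not tested. The pools shared between genes make such likeness a description of these libraries only.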

How the data were processed

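The 18 libraries of cytosolic RNA from PC-3 cells form 6 groups of 3. Per the submitters' processing notes, STAR, GRCh38.p13 and DESeq2 were used. Tool versions, how reads were counted, on which annotation and with what strand setting, is not given in the sources used here. Raw counts, as deposited, stand in 1 table per NCBI Gene ID and are not normalized. The authors' deposited tables compare sheared with static cells by log2 fold change and, per the file headers, adjusted p-values. Columns were matched to samples by their names. The 3 h columns carry a time and a letter that the labels repeat, and their treatment letter was read as in the later columns.

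Symbols came from RefSeq for 27745 of 28395 IDs, positions and merged exon lengths from GENCODE 29 (GRCh38) for 25468, and promoter windows from RefSeq (GRCh38.p14). Libraries of 16400487 to 25862360 counts were scaled by TMM to CPM. Genes passing filterByExpr (count 10, total 15) were tested with edgeR 4.0.16 in R 4.3.3, by its quasi-likelihood F test (legacy method, robust dispersions) with Benjamini-Hochberg adjustment over all genes, at a threshold of 0.05. Sheared and static cells were compared in 1 model of 18 libraries with 9 pools as blocks (6 residual degrees of freedom). Changes with time were tested in models of the 9 static or 9 sheared libraries. The SE was computed as the absolute log2 fold change divided by the root of F. DESeq2 1.42.0, its size factors, no filter, no block, single times and leaving out each pool or library were alternatives.

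Per the labels, a pool was divided into the sheared and static library of the same number, so the pairing comes from the design. As a check, deviations of genes from their group mean were correlated. Pearson's r was between 0.0881 and 0.299 (3 h), -0.148 and 0.245 (12 h) and 0.379 and 0.504 (24 h) for libraries of 1 pool, and between -0.242 and 0.130, -0.385 and 0.233, and -0.296 and -0.0924 for other sheared and static libraries. No libraries were identical, and chi-square divided by its degrees of freedom lay between 4.44 and 143 within groups.

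All 10 members are named. Of each other list, the rule allowed up to 4 genes by smallest p among those past the threshold and the gene of highest level; for up to 4 members, the 3 nearest genes are named. SEMA3F, PLXNA1, PLXNA4, ZYX, SLC12A9, KLK3, CDH5, VWF, PTPRC, CDH1 and RGS3 are outside that rule and were named after their values were seen. The members and lists were chosen with earlier results of these data known. The scripts were tested on simulated data with known changes. Of 1.5-fold changes between sheared and static cells, 41.8% were recovered at 3 h and 40.3% at 12 h and at 24 h. In sheared 24 h over 12 h cells, 5.97% of 1.5-fold and 23.9% of 2-fold changes were recovered. False calls were 13 of 154 at 3 h, 12 of 154 at 12 h and 7 of 139 at 24 h. For static cells they were 16 of 154 at 12 h over 3 h and 5 of 143 at 24 h over 12 h.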

Additional observations from a re-analysis of the deposited data

Results flagged for a closer look

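For several members the difference between sheared and static cells was not the same at all times. These differences come from the contrasts that the members were chosen on, so they are values without support, and the comparison of 24 h with 3 h was chosen after seeing the data; it also crosses the batch dates. EPHA2 stands out because its log2 fold change was lower by -0.85 ± 0.17 at 24 h than at 3 h, a difference past the threshold of edgeR's test that was lost without the third 3 h pool (-0.67) and without the block (-0.83). NRP2 stands out because its log2 fold change was higher by 1.11 ± 0.27 at 24 h than at 3 h, also past the threshold, and lost without the first (1.11) or second (1.03) 3 h pool, the third 24 h pool (0.85) or the block (1.20). The others rest on pools that all moved one way at one time and the opposite way at another, and none passed the threshold in edgeR: EPHB4 at 24 h minus 3 h, at -0.60 ± 0.18 (called with DESeq2, at -0.59), EFNB2 at 12 h minus 3 h, at -0.71 ± 0.21, and EFNA1 at 12 h minus 3 h, at 0.27 ± 0.16, and at 24 h minus 12 h, at -0.28 ± 0.16. No explanation was tested.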

How the results depend on the processing

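Over the alternatives, 690 values of single members kept their direction and their side of the threshold, 53 fell below it, 21 passed it and 4 changed direction. None of those 4 was called. Leaving out 1 pool at a time, EFNB1 lay between -0.10 and 0.13 at 12 h and between -0.23 and 0.04 at 24 h, and EFNB2 between -0.30 and 0.07 at 24 h. Leaving out 1 library, EFNB2 in sheared 24 h over 12 h cells lay between -0.49 and 0.11. The number of members called between sheared and static cells was 3 at 3 h, 4 at 12 h and 5 at 24 h. Without the replicate block, which ignores the pairing of libraries by pool, it was 0, 2 and 2; at 12 h and 24 h these were NRP2 and NRP1. With the 6 libraries of 24 h alone it was 1, which was NRP2. Leaving out 1 pool gave between 0 and 3 calls at 3 h, 2 and 5 at 12 h, and 2 and 5 at 24 h. Leaving out 1 library gave between 3 and 6 calls for static 24 h over 12 h cells and between 0 and 2 for sheared 24 h over 12 h cells, where DESeq2 called 3 and the fit without a filter 2. For static 12 h over 3 h cells the count stayed between 5 and 8. NRP1 at 12 h and NRP2 at 12 h and 24 h were called under all 14 alternatives. Some of the 14 left out a pool of another time, which bears on a shear value mainly through the estimate of spread that all times share. The cause of the lost calls was not tested. NRP2, the least abundant member, had 52 to 409 counts per library; how far depth bears on the values not called was not tested.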
